A study of Rattus norvegicus with 8 samples.

Results

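Gdf9 and Bmp15, the growth factors secreted by the oocyte, were examined together with Bmp2, Bmp4, Bmp6 and Bmp7, the receptors Bmpr1a, Bmpr1b and Bmpr2 and the antagonist Grem1 in whole rat ovaries. The 10 genes were chosen by name, and every non-control probe carrying one of those names was taken, which gave 11 of the 30350 probes measured on every array (26204 gene names in all). Grem1 had 2 probes and each other gene 1, and every one of these probes was printed as 2 spots per array. Female rats of 26 days received a subcutaneous injection of either 50 IU of pregnant mare serum gonadotropin (PMSG), a gonadotropin that acts mainly like follicle-stimulating hormone and in part like luteinising hormone, or the albumin phosphate buffer (0.2 ml) that carried it. Ovaries were removed 48 h later, at 28 days of age, and 4 arrays per group were hybridised with Cy3-labelled RNA made from 500 ng of total RNA. No strain or genetic change is named in the labels used here, and they do not say whether each array held the ovaries of 1 animal, so the p-values below measure only the spread between these samples.

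GDF9 and BMP15 belong to the transforming growth factor beta superfamily and act from the oocyte on the granulosa cells around it, where they support follicle growth and hold back early luteinisation. Superfamily ligands bind pairs of type I and type II receptors, which phosphorylate SMAD proteins: BMPR2 serves as a type II receptor for GDF9 and BMP15, while BMPR1A and BMPR1B are type I receptors of the BMP branch. BMPs made by granulosa, theca and stromal cells of the ovary are known to modulate the response of granulosa cells to follicle-stimulating hormone, and gremlin binds BMPs outside the cell and keeps them from their receptors.

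The probe sequences of the ligands that rose are shown to place each measurement within its transcript, with Bmp4 beside Bmp2 because their probes cover matching stretches of related coding sequence. Positions are those of the array files, on rat build rn4. The Gdf9 probe lies at chr10:38902923-38902982 (plus strand), the Bmp15 probe at chrX:29003933-29003992 (minus strand), the Bmp2 probe at chr3:121381127-121381186 (plus strand) and the Bmp4 probe at chr15:22283362-22283421 (minus strand). In the first pair, capitals mark the 15 bases over which the end of the Gdf9 probe lines up with the start of the Bmp15 probe, where 12 bases are identical; the Bmp15 probe is printed to the stop codon of its longest open frame, 41 of its 60 bases. In the second pair, capitals mark the 46 bases over which the Bmp2 and Bmp4 probes line up, with 36 identical bases and no identical run longer than 8.
Gdf9: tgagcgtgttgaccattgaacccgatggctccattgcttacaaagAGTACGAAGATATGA
Bmp15: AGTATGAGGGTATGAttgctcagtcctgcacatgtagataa
Bmp2: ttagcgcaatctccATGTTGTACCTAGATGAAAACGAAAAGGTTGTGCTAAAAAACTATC
Bmp4: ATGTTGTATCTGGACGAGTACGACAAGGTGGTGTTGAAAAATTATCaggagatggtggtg
The Gdf9, Bmp2 and Bmp4 probes are open in at least 1 frame over all 60 bases, and the Bmp15 probe runs past a stop codon. No annotation of build rn4 was used here, so exons are not given.

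The 250 bases before the RefSeq start sites of Gdf9 and Bmp15 (build GRCr8, chr10:38096301-38096550 and chrX:18840693-18840942, both plus strand) are shown because both genes rose and both are known targets of NOBOX, an oocyte homeodomain factor. E-boxes are the sites of basic helix-loop-helix factors such as FIGLA. Capitals mark E-boxes.
Gdf9 promoter: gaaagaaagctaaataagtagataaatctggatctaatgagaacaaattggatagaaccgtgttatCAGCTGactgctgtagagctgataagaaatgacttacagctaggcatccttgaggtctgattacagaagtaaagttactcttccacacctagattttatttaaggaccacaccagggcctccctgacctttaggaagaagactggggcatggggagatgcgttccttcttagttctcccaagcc
Bmp15 promoter: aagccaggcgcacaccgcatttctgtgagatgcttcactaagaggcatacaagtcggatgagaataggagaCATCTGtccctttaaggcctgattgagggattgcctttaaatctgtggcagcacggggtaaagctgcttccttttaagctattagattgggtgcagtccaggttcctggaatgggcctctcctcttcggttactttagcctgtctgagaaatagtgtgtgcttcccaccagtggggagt
Searched on both strands, each window held 1 match to the E-box CANNTG. In Gdf9 it read CAGCTG and began 184 bases upstream. In Bmp15 the match read CATCTG and began 179 bases upstream. An E-box is found in 65.5% of the 33469 RefSeq promoter windows of this length, and the form CAGCTG, itself one of the CANNTG sequences, in 12.0%. Of the NOBOX elements searched, TAATTA occurred in 4.86% of all windows and TAATTG in 7.31%. At least 1 of these or the related TAGTTG occurred in 16.4% of all windows and none in those of Gdf9 and Bmp15. These matches describe letters in the windows and no more. Of the 10 genes, 7 had a promoter entry.

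Levels below are log2 processed signals minus the 75th percentile of the same array, so that 0 is the signal of that percentile, which lay between 769 and 1103 on the 8 arrays. Between 80.8% and 84.6% of probes were well above background, and no spot was saturated. Several genes that respond to gonadotropin ran against the direction generally known for PMSG: by limma with Benjamini-Hochberg adjustment over the 25303 tested probes, Lhcgr, the receptor for luteinising hormone, was lower by 1.93 in arrays labelled PMSG (log2 difference -1.93, adjusted p = 0.00114), and Star and Cyp11a1, which act in the first steps of steroid synthesis, differed by -2.75 (adjusted p = 0.00541) and -3.36 (adjusted p = 2.32e-04). All 7 luteal cell markers tested were lower in arrays labelled PMSG (limma), as were 16.6% of all tested probes. Their summed signal was 14.8 to 32.7 times the 75th percentile, against 151 to 172 in arrays labelled control. Of these markers, Akr1c18 was above background on 4 control-labelled arrays and 1 PMSG-labelled array, and Ptgfr on 4 and 0. Both were thus tested only because they were high in arrays labelled control. Among luteal markers above background on all arrays, 5 of 5 were lower. As a check of the labelled tissue, all 14 matched oocyte markers, 10 granulosa markers and 4 theca markers were well above background on enough arrays to be tested. Every direction here follows the labels as given, and whether the labels match the injections was not tested.

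Of the 10 genes, 3 rose in arrays labelled PMSG (30%), namely Gdf9, Bmp15 and Bmp2, none fell, and 7 did not pass the test. Over all 25303 tested probes, 34.2% passed at an adjusted p under 0.05 (limma), 17.6% higher and 16.6% lower, so that the share among these genes was near that of the array as a whole. The same 3 genes were the ones whose groups did not overlap, beside 36.6% of all tested probes (17.9% higher and 18.6% lower), and 4 genes had an unadjusted p under 0.05, none of them lower. The median log2 difference was 0.19 for the 10 genes and 0.11 over all tested probes. Each gene's brightest probe was well above background on all 8 arrays.

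**Figure D1:**
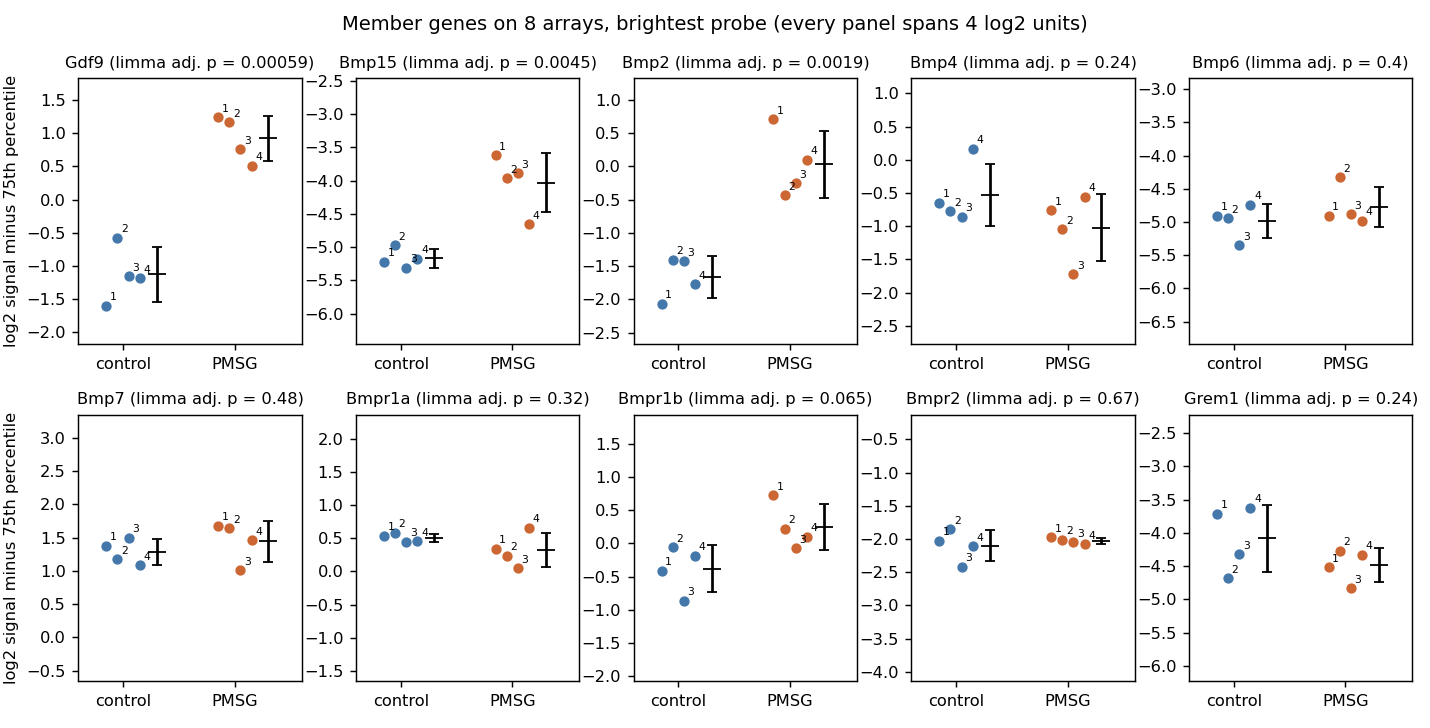
Level of each of the 10 genes on every array (log2 processed signal minus the array's 75th percentile), with control-labelled arrays in blue, PMSG-labelled arrays in orange, replicate numbers beside the points, and mean and SD (n = 4) as bars. Gdf9, Bmp15 and Bmp2 show no overlap between groups, and the other 7 genes overlap.

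Gdf9 showed the largest difference of the 10 genes. Its level was -1.60, -0.58, -1.15 and -1.18 on control-labelled arrays 1 to 4, and 1.24, 1.17, 0.76 and 0.51 on PMSG-labelled arrays 1 to 4. All 4 PMSG-labelled arrays lay above all 4 control-labelled arrays, with control array 2 the highest of its group and PMSG array 4 the lowest of its own. The means were -1.13 ± 0.42 (SD, n = 4) and 0.92 ± 0.34 (SD, n = 4), a log2 difference of 2.05 (SE 0.24, 95% confidence interval 1.49 to 2.61), or 4.13-fold (limma, adjusted p = 5.92e-04). The processed signal ranged from 345 to 707 in arrays labelled control and from 1304 to 2326 in arrays labelled PMSG. The 2 spots of the probe differed by a median of 0.045 log2 units, far less than the arrays did.

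Bmp15 also rose, from a dimmer signal and by less. Control-labelled arrays 1 to 4 gave levels of -5.22, -4.97, -5.31 and -5.18, and PMSG-labelled arrays 1 to 4 gave -3.61, -3.96, -3.89 and -4.66. The groups did not overlap, and control array 2 and PMSG array 4 were again the arrays nearest to the other group. The log2 difference was 1.14 (SE 0.21, interval 0.65 to 1.63; limma, adjusted p = 0.00451), between means of -5.17 ± 0.14 and -4.03 ± 0.44 (SD, n = 4 each), or 2.20-fold. Its processed signal was only 25.3 to 33.6 in arrays labelled control and 42.8 to 80.2 in arrays labelled PMSG, and the 2 spots differed by a median of 0.19 log2 units. With the normexp background correction, which adds an offset of 50 to each signal, the difference was 0.54 (adjusted p = 0.00984), so the size for this dim probe rested on how background was treated.

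The measured difference was larger for Gdf9 than for Bmp15. Gdf9 minus Bmp15 was 4.04 ± 0.32 in arrays labelled control and 4.95 ± 0.24 in arrays labelled PMSG (SD, n = 4 each), with no overlap, a change of 0.91 (exact two-sided permutation test over the 8 arrays, p = 0.0286, adjusted over 5 such comparisons p = 0.0357). The smallest p that 4 arrays against 4 can give is 0.0286. Leaving out each array in turn kept the change between 0.77 and 1.03. With normexp it was 1.39, where the dim Bmp15 differed by 0.54 and Gdf9 by 1.93. An offset of 50 shrinks the log2 difference of a dim probe most, so the normexp value is no separate support. Whether the low signal of Bmp15 reduced its measured difference was not tested.

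Oocyte markers moved in the same direction in the same arrays. All 14 measured genes of the oocyte marker list rose (limma; 17.6% of all tested probes did), by a median log2 difference of 1.92, against 0.11 over all tested probes. The largest were Npm2, the oocyte nucleoplasmin, with a log2 difference of 2.30 (SE 0.24, adjusted p = 3.81e-04), H1foo, the oocyte linker histone, with 2.22 (SE 0.26, adjusted p = 5.79e-04), and Zar1, a maternal factor of the first embryonic divisions, with 2.18 (SE 0.26, adjusted p = 5.50e-04). The summed signal of the list was 5.05 to 9.02 times the 75th percentile in arrays labelled control and 18.4 to 35.3 times in arrays labelled PMSG. The call of 1 marker, the germ cell helicase Ddx4 (1.51, adjusted p = 0.0287), was lost without control array 3 or PMSG array 1 or 2 (adjusted p 0.051 to 0.074). It was also lost under quantile normalization (1.19, limma adjusted p = 0.0860) and with array weights (1.45, limma adjusted p = 0.0546). The Ddx4 probe was above background on 7 of 8 arrays. In whole ovary RNA, a different share of oocytes and a different amount of RNA per oocyte cannot be told apart.

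The mean level of the oocyte markers was -2.37, -1.47, -1.80 and -1.96 on control-labelled arrays 1 to 4 and 0.37, 0.25, -0.06 and -0.44 on PMSG-labelled arrays 1 to 4. As with Gdf9 and Bmp15, control array 2 was the highest of its group and PMSG array 4 the lowest of its own. The mean differed by 1.93 between groups. Gdf9 minus this mean was 0.77 ± 0.10 in arrays labelled control and 0.89 ± 0.06 in arrays labelled PMSG (SD, n = 4 each), a change of 0.12 with overlapping groups (exact permutation test, p = 0.0857, adjusted p = 0.0857). That p does not show that Gdf9 and the markers changed alike, and under quantile normalization the change was 0.17 with an adjusted p of 0.0286 (exact permutation test). Bmp15 minus the marker mean fell from -3.27 ± 0.31 to -4.06 ± 0.19 (SD, n = 4 each), a change of -0.79 with no overlap (exact permutation test, p = 0.0286, adjusted p = 0.0357). The measured difference of Bmp15 was thus smaller than that of the markers. Bmp15 lay far below the marker mean in signal, and whether low signal reduced its difference was not tested.

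Regulators of oocyte transcription rose as well: 5 of the 5 tested did (limma), beside 17.6% of all tested probes. Their median log2 difference was 1.71, against 0.11 over all tested probes. Nr6a1 was not above background on enough arrays to be tested. Lhx8, a homeodomain factor of early oocytes, stood at -1.34 ± 0.29 in arrays labelled control and 0.83 ± 0.19 in arrays labelled PMSG (SD, n = 4 each), which differ by 2.17 (SE 0.17; limma, adjusted p = 1.14e-04). Figla, the basic helix-loop-helix factor that drives zona pellucida genes, differed by 1.97 (SE 0.22, adjusted p = 4.66e-04), and Nobox, the oocyte homeobox factor, by 1.71 (SE 0.20, adjusted p = 5.31e-04). Sohlh1 differed by 1.15 (SE 0.12). Sohlh2 differed by 1.58 (adjusted p = 0.0298), and its call was lost without control array 2 or 4 or PMSG array 1, 2 or 3 (adjusted p 0.056 to 0.074).

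**Figure D2:**
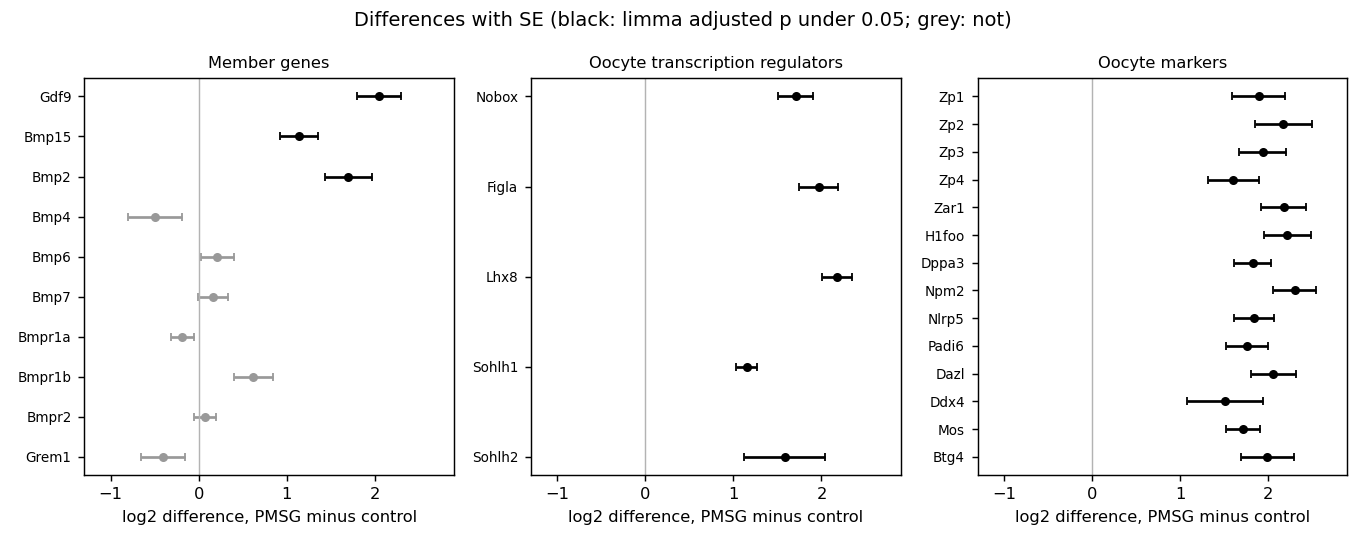
Log2 difference, PMSG minus control, with its SE, for the 10 genes, the 5 tested oocyte transcription regulators and the 14 tested oocyte markers; black points passed limma's adjusted p of 0.05 and grey points did not. The oocyte regulators and markers lie between 1.15 and 2.30, Gdf9 at 2.05 lies among them, and Bmp15 at 1.14 lies at their lower end.

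The genes whose pattern over the 8 arrays was most like that of Gdf9 were found by centring each of 17574 genes on its own mean and taking the root mean square difference. Zar1 was nearest, at 0.096 log2 units, followed by Gtf2a1l, a germ cell form of a general transcription factor subunit, at 0.100, Oas1e at 0.102, Zar1l, a relative of Zar1, at 0.118, and the alpha-tubulin gene Tuba3a at 0.119. Zar1 is itself in the oocyte marker list, and the other 4 are in no list used here. Bmp15 ranked 379 by this measure, at 0.52 log2 units. The 4 genes most like Bmp15 were Gldn at 0.095, Sbk2 at 0.102, Klk13 at 0.113, and Brdt, a bromodomain gene of male germ cells, at 0.121, while Gdf9 ranked 4836 in that order. Genes were centred but not scaled, so a distance also counts a different size of the group difference, as between Gdf9 and Bmp15. These distances are descriptions over arrays that share the 2 groups, and they carry no test.

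Bmp2, a BMP ligand made by granulosa cells in the rat ovary, was the third gene to rise. Its level was -2.06, -1.40, -1.42 and -1.77 on control-labelled arrays 1 to 4 and 0.71, -0.43, -0.25 and 0.10 on PMSG-labelled arrays 1 to 4. No PMSG-labelled array fell within the control range, and PMSG array 1 was the highest. The log2 difference was 1.70 (SE 0.27, interval 1.09 to 2.31), or 3.24-fold, between means of -1.67 ± 0.31 and 0.03 ± 0.51 (SD, n = 4 each; limma, adjusted p = 0.00193). The signal was 250 to 398 in arrays labelled control and 646 to 1611 in arrays labelled PMSG. Within slide row 1, with 2 arrays per group, Gdf9, Bmp15 and Bmp2 differed by 1.84, 1.15 and 1.25, and all passed. Within slide row 2 they differed by 2.25, 1.13 and 2.15 and did not pass (limma, adjusted p = 0.0770, 0.218 and 0.0819), where 0 probes of the whole array passed and 6015 had an unadjusted p under 0.05.

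Of the granulosa cell markers, 2 passed as higher, 2 as lower and 6 did not pass, with a median log2 difference of -0.03. For this and the next lists, the share over all tested probes was 17.6% higher and 16.6% lower (limma). The count of lower granulosa markers was 3 without control array 3 and 1 without any other single array, and their median ran from -0.25 to 0.08 over these omissions. Their summed signal was 145 to 251 times the 75th percentile in arrays labelled control and 145 to 186 times in arrays labelled PMSG. Among markers of other cells, 6 of 9 epithelial genes rose, with a summed signal of 18.8 to 25.2 against 32.1 to 49.0, and 4 of 6 leukocyte genes and 3 of 4 theca genes passed as higher. Of 8 stromal genes 4 passed as higher, but 0 did with median centring and 2 did without control array 1, 2 or 4 or PMSG array 3. Endothelial genes gave 1 higher and 3 lower of 7, and smooth muscle genes 0 of 5 (limma; 0 at an unadjusted p under 0.05). The part of these cells in the differences of Bmp2 and of the other genes was not tested.

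The other 3 BMP ligands did not pass the test. Bmp4, which theca cells are known to secrete, measured -0.65, -0.78, -0.85 and 0.17 on control-labelled arrays 1 to 4, and the 4 PMSG-labelled arrays measured -0.76, -1.04, -1.72 and -0.56. Control array 4 and PMSG array 3 stood at the ends, and the rest overlapped. The difference was -0.49 (SE 0.31, interval -1.20 to 0.21; limma, adjusted p = 0.240). It was -1.08 within slide row 1 and 0.09 within slide row 2, so its direction was not stable.

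Bmp7, another ligand known from theca cells, had levels of 1.08 to 1.50 in arrays labelled control and 1.01 to 1.68 in arrays labelled PMSG. Its log2 difference of 0.16 had an interval of -0.24 to 0.56 (limma, adjusted p = 0.485) and was -0.0065 with arrays centred on their median. Its probe lies at chr3:163723705-163723764 (minus strand).

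Bmp6, which oocytes also produce, was measured at a signal of 24.5 to 41.2 in arrays labelled control and 26.1 to 51.1 in arrays labelled PMSG, at chr17:32380203-32380262 (minus strand). Its level was -4.90, -4.94, -5.35 and -4.74 on control-labelled arrays 1 to 4 and -4.91, -4.33, -4.88 and -4.98 on PMSG-labelled arrays 1 to 4. Only PMSG array 2 lay above the control range. The difference was 0.21 (SE 0.19, interval -0.22 to 0.64; limma, adjusted p = 0.403) and -0.06 under quantile normalization. Bmp6 minus the oocyte marker mean was -3.09 ± 0.51 in arrays labelled control and -4.80 ± 0.34 in arrays labelled PMSG (SD, n = 4 each). This change of -1.72 came with no overlap (exact permutation test, p = 0.0286, adjusted p = 0.0357). The marker mean itself rose by 1.93, so a probe with little difference of its own would give a similar change. The test therefore says nothing of Bmp6 beyond its difference of 0.21. The measured difference of Bmp6 was thus smaller than that of the markers, and the part of its low signal in this was not tested. The 2 spots of this dim probe differed by up to 0.59 log2 units on 1 array.

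None of the receptors passed the test. Bmpr1b, a type I receptor used by BMP15, came nearest: its level was -0.41, -0.06, -0.87 and -0.19 on control-labelled arrays 1 to 4 and 0.72, 0.22, -0.08 and 0.10 on PMSG-labelled arrays 1 to 4. PMSG arrays 1, 2 and 4 lay above the control range and PMSG array 3 lay just inside it. The difference was 0.62 (SE 0.23, interval 0.10 to 1.14; limma, unadjusted p = 0.0243, adjusted p = 0.0647). It passed with normexp (0.57, adjusted p = 0.0430) and with array weights (0.69, adjusted p = 0.0491), and measured 0.19 within slide row 1 against 1.05 within slide row 2. The probe lies at chr2:239727621-239727680 (minus strand).

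Bmpr1a, the other BMP type I receptor here, had levels of 0.54, 0.58, 0.45 and 0.45 on control-labelled arrays 1 to 4 and 0.34, 0.24, 0.05 and 0.66 on PMSG-labelled arrays 1 to 4. PMSG arrays 1 to 3 lay below the control range and PMSG array 4 above it. The difference was -0.18 (SE 0.14, interval -0.50 to 0.13; limma, adjusted p = 0.318), measured at chr16:10062311-10062370 (minus strand). It was -0.30 without PMSG array 4 (adjusted p = 0.0504) and -0.09 without PMSG array 3. Bmpr1a minus Bmpr1b nevertheless changed, from 0.89 ± 0.32 to 0.08 ± 0.39 (SD, n = 4 each), a change of -0.80 with no overlap (exact permutation test, p = 0.0286, adjusted p = 0.0357). The change thus differed between the type I receptors, while neither passed on its own.

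Bmpr2, the type II receptor shared by GDF9 and BMP15, differed least. Its level was -2.02, -1.85, -2.42 and -2.11 on control-labelled arrays 1 to 4 and -1.98, -2.01, -2.05 and -2.08 on PMSG-labelled arrays 1 to 4. All PMSG-labelled arrays fell inside the control range. The difference was 0.07 (SE 0.13, interval -0.22 to 0.37; limma, adjusted p = 0.673), and its sign changed with the scaling. The probe lies at chr9:58433667-58433726 (plus strand).

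Grem1, the BMP antagonist, did not pass with either probe. The brighter probe (chr3:99597201-99597242, minus strand) gave -3.71, -4.68, -4.32 and -3.62 on control-labelled arrays 1 to 4 and -4.52, -4.27, -4.83 and -4.33 on PMSG-labelled arrays 1 to 4. Control arrays 1 and 4 were the highest, and the groups overlapped. The difference was -0.40 (SE 0.25, interval -0.98 to 0.18; limma, adjusted p = 0.244) for this probe and -0.25 (SE 0.40, adjusted p = 0.641) for the second (chr3:99600383-99600442, minus strand), of whose 16 spots 13 were well above background and whose spot pairs differed by a median of 0.85 log2 units. With 1 array left out, the brighter probe ranged from -0.60 (without control array 2, adjusted p = 0.0833) to -0.25 (without control array 4), and normexp gave -0.13.

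**Figure D3:**
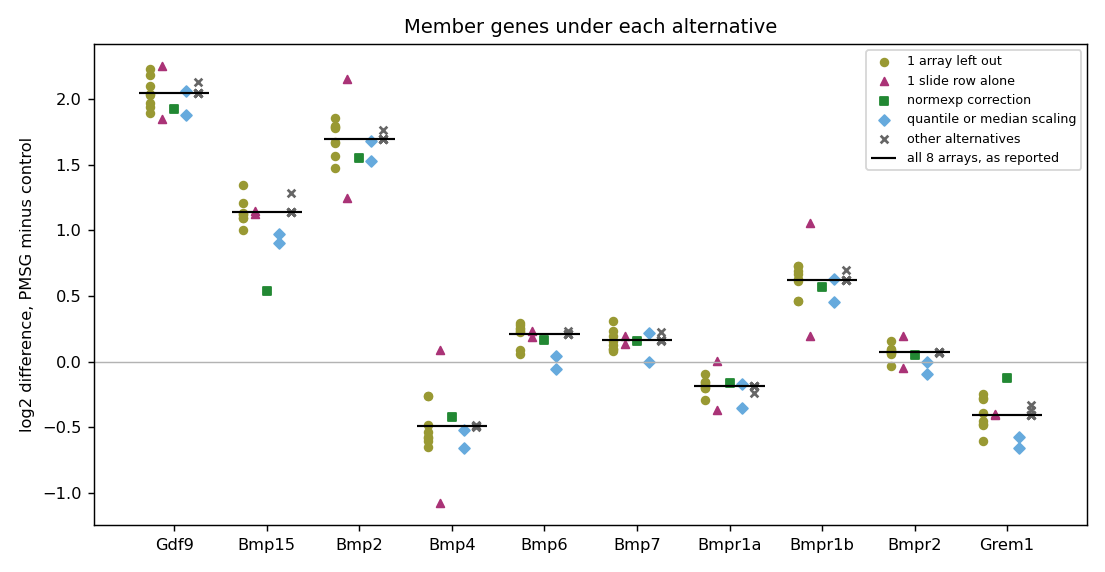
Log2 difference, PMSG minus control, of each gene's brightest probe with all 8 arrays (black line) and under each alternative: 1 array left out, 1 slide row alone, normexp correction, quantile or median scaling, and the rest. Gdf9 and Bmp2 stay above 1.2 throughout, Bmp15 drops to 0.54 with normexp, and Bmp4, Bmp6, Bmp7, Bmpr1a and Bmpr2 reach both sides of 0.

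The other genes of the pathway were taken as 8 lists of 73 genes, of which 67 were tested. There, 22 rose, 7 fell and 38 did not pass (limma), so 43.3% passed, against 34.2% of all tested probes. Without the oocyte regulators, 24 of 62 passed (38.7%). The lists held genes that rose and genes that fell in nearly every role, and each list's median stands beside the 0.11 of all tested probes.

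Among 10 other ligands, 2 passed as higher and 1 as lower, with a median of 0.22 that was 0.06 with median centring and -0.02 without PMSG array 3. Bmp3, known to oppose other BMPs, fell from -1.92 ± 0.14 to -3.90 ± 0.19 (SD, n = 4 each), a change of -1.98 (SE 0.13; by limma, adjusted p = 5.97e-05). Gdf6, a BMP family ligand, rose from -3.42 ± 0.11 to -2.00 ± 0.29, by 1.42 (SE 0.15, adjusted p = 3.93e-04). Bmp8a, a ligand best known from germ cells, differed by 0.71 (adjusted p = 0.0270), a call lost without control array 1 or 4 or PMSG array 1 or 3 (adjusted p 0.052 to 0.069).

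Among 9 other receptors and co-receptors, 2 rose and 1 fell (median 0.44). Eng, the endothelial co-receptor endoglin, fell by 0.90 on the log2 scale (SE 0.14, adjusted p = 0.00186). Of the 7 endothelial markers, 3 fell, 1 rose and 3 did not pass. Acvr2b, an activin type II receptor, rose by 0.80 (SE 0.15, adjusted p = 0.00424), while its dimmer probe differed by 0.45 without passing (adjusted p = 0.103). Hfe2, the BMP co-receptor hemojuvelin, differed by 0.85 without passing (adjusted p = 0.0507), though it passed without PMSG array 4 (1.13, adjusted p = 0.00291). Tgfbr1, the type I receptor through which GDF9 acts, differed by 0.44 (adjusted p = 0.0265). That call was lost with median centring (0.27, adjusted p = 0.270) and without control array 1, 3 or 4 or PMSG array 1 or 2 (adjusted p 0.054 to 0.073). The number rising in this list was 4 without PMSG array 4, 1 without control array 1 or 4 or PMSG array 1, and 5 under quantile normalization.

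Of 8 SMADs and SMAD ubiquitin ligases tested, 2 rose and 1 fell (median 0.24). Smad7, the inhibitory SMAD, rose from -2.46 ± 0.13 to -1.15 ± 0.45 (SD, n = 4 each), by 1.31 (SE 0.22, limma adjusted p = 0.00247). Smad2, which carries the GDF9 and activin signal, fell by 0.92 on the log2 scale (SE 0.14, adjusted p = 0.00170). The SMADs of the BMP branch did not pass: Smad1 differed by 0.12, Smad5 by 0.35 and Smad9 by 0.44 (adjusted p = 0.529, 0.114 and 0.109). Without PMSG array 4, Smad5 (0.50, adjusted p = 0.00678) and Smad9 (0.59, adjusted p = 0.0225) also passed, which made 4 rising. The common partner Smad4 differed by 0.04 and Smad3 was not above background. Smurf2, a ubiquitin ligase, differed by 0.42 (adjusted p = 0.0136) and by 0.26 with median centring (adjusted p = 0.232). Its dimmer probe differed by -0.07 without passing (limma, adjusted p = 0.687). Smurf1, also a ubiquitin ligase, differed by 0.03 (limma, adjusted p = 0.792). The dimmer Smurf1 probe passed as lower (-0.37, limma adjusted p = 0.0355), and did so in 10 of 19 alternatives.

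Extracellular antagonists and modulators gave 4 higher and 2 lower of 16 (median 0.41). Sostdc1, a secreted antagonist of BMPs and of WNT signals, rose from 2.01 ± 0.59 to 4.12 ± 0.23 (SD, n = 4 each), by 2.10 (SE 0.28, limma adjusted p = 9.23e-04). Dand5, of the same cystine-knot antagonist family as gremlin, rose by 1.65 (SE 0.34, adjusted p = 0.00672). Fst, follistatin, which binds activin and some BMPs, fell from 4.87 ± 0.24 to 3.82 ± 0.12, by 1.05 on the log2 scale (SE 0.14, adjusted p = 8.45e-04), and its relative Fstl3 fell by 0.68. Bambi, a decoy receptor, differed by 0.72 (adjusted p = 0.0311), a call lost without control array 1 or PMSG array 1 or 2 (adjusted p 0.064 to 0.078) and with median centring (0.114). Kcp, a chordin-like protein, rose by 0.68. Noggin and chordin, the classic BMP antagonists, did not pass (Nog 0.25, Chrd 0.22).

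Of the 6 proteases that process the ligands, 2 passed higher and 1 lower (median 0.11). Pcsk5 fell by 0.62 on the log2 scale (SE 0.13, limma adjusted p = 0.00824). Pcsk6, another proprotein convertase, differed by 0.49 (SE 0.12, adjusted p = 0.0146) and Bmp1, a metalloprotease in spite of its name, by 0.42 (SE 0.10, adjusted p = 0.0131). Neither passed with median centring (0.32 and 0.25, adjusted p = 0.0774 and 0.240), which shifted the median of all probes from 0.11 to -0.05. The dimmer probe of Pcsk6 differed by 0.53 without passing (limma, adjusted p = 0.147). That of Bmp1 went the other way, by -0.14, without passing (adjusted p = 0.352). Furin differed by 0.27 (adjusted p = 0.154).

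BMP target genes did not move one way: of 8, 3 passed higher and 1 lower (median 0.64). The inhibitor-of-differentiation genes, direct targets of SMADs of the BMP branch, split. Id2 fell from 3.00 ± 0.15 to 0.79 ± 0.26 (SD, n = 4 each), a change of -2.21 (SE 0.15; by limma, adjusted p = 6.66e-05), Id4 rose from -0.58 ± 0.23 to 0.75 ± 0.33, by 1.33 (SE 0.19, adjusted p = 0.00124), and Id1 (0.49, adjusted p = 0.0906) and Id3 (-0.10, adjusted p = 0.816) did not pass. Atoh8 rose by 0.99 (SE 0.12). Msx2, a homeobox gene, differed by 2.11 (SE 0.69, adjusted p = 0.0462), was above background on 7 of 8 arrays, and lost its call without control array 1, 2 or 4 or PMSG array 1 or 4 (adjusted p 0.077 to 0.110). It also did not pass under quantile normalization (adjusted p = 0.0878), with median centring (0.0591), in the deposited values (0.0587) or with no filter on dim probes (0.0582). A dimmer Msx2 probe, also above background on 7 of 8 arrays, rose by 1.13 (SE 0.29, limma adjusted p = 0.0181). That probe passed in 14 of 18 alternatives.

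Granulosa and cumulus genes known to respond to GDF9 gave 2 higher and 0 lower of 5 (limma; 1 lower at an unadjusted p under 0.05; median 0.30). Ptx3, a protein of the cumulus matrix, rose from -0.01 ± 0.49 to 1.54 ± 0.76 (SD, n = 4 each), by 1.55 (SE 0.40, adjusted p = 0.0180). A dimmer Ptx3 probe rose by 2.35 (SE 0.29, limma adjusted p = 6.55e-04). Ptger2, a prostaglandin E2 receptor, rose by 1.08 (SE 0.15, adjusted p = 0.00126). Has2, which makes the hyaluronan of the expanded cumulus, was above background on 5 of 8 arrays and differed by -0.79 without passing (adjusted p = 0.0779). It passed as lower without PMSG array 4 (-0.45, adjusted p = 0.0156), under quantile normalization (-1.12, adjusted p = 0.00279), with median centring (-0.95, adjusted p = 0.0182) and with array weights (-0.59, adjusted p = 0.0391), and had no direction with normexp. Tnfaip6 (-0.25) and Kitlg (0.30) did not pass, and Ptgs2 was not above background on enough arrays to be tested.

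**Figure D4:**
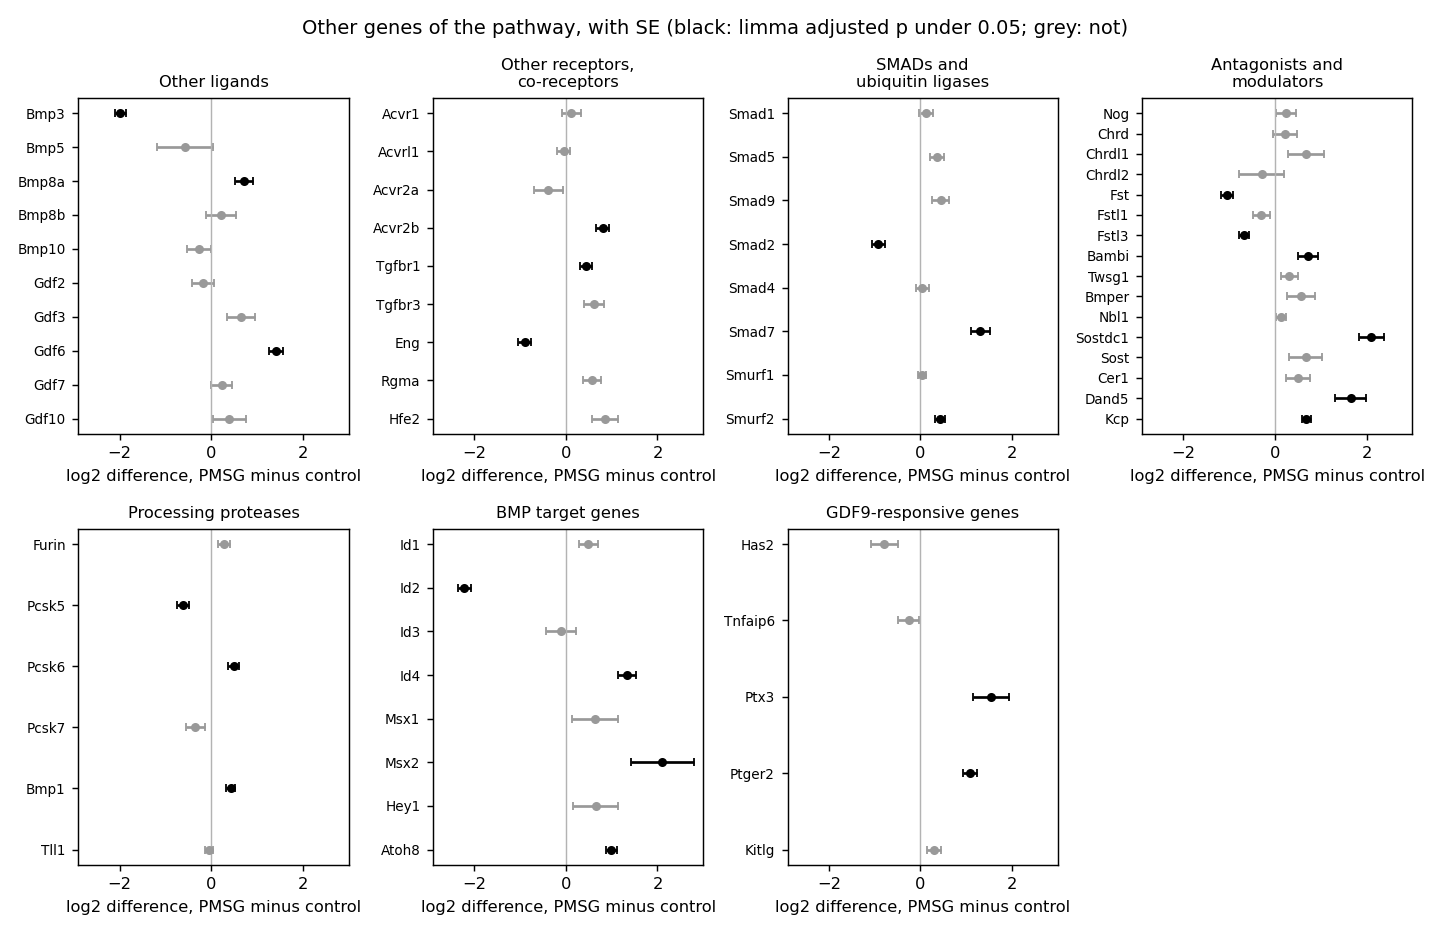
Log2 difference, PMSG minus control, with its SE, for the tested genes of 7 pathway lists; black points passed limma's adjusted p of 0.05 and grey points did not. Bmp3 and Id2 lie near -2, Sostdc1 and Msx2 above 2, and most SMADs and proteases within 1 of 0.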

How the data were processed

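Ovary RNA was measured on 8 one-colour Agilent rat arrays, 4 per label. Per the file headers, the authors extracted spot intensity with Agilent Feature Extraction 11.5.1.1. They also deposited a table of log2 values, whose scale, checked on the scanner files, was the log2 signal less the 75th percentile of its array, with no centring of probes. Each of its columns matched its own array best (r 0.998 to 1.000; column medians -3.21 to -2.82). Columns not used numbered 0. Control and outlier spots were left out, log2 processed signals of a probe's spots were averaged, and each array's 75th percentile was subtracted. Of the probes, 17 had no usable spot on some array. A probe was tested where at least 0.5 of its spots were well above background on at least 4 arrays, which left 25303. The labels' 2 groups entered a limma fit (version 3.58.1, R 4.3.3, lmFit and eBayes without covariates) with Benjamini-Hochberg adjustment and a threshold of 0.05. The procedure was also run on simulated arrays. Far fewer probes were changed there than passed in these data, so that run does not show its accuracy here. The brightest probe stood for a gene. Per-array differences were tested by exact two-sided permutation.

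The members and lists were chosen with earlier results of these data known. The genes named are all members, the 3 with the largest difference in each pathway list and in the oocyte list, and the 5 most like Gdf9 and Bmp15. A gene of the antagonist list, left out of its counts, and one of those most like Bmp15 are not reported here. Others in the lists were named after their values were seen. Gdf5, Rgmb, Smad6, Ooep and Cyp19a1 were not matched by name, and Akr1c18 was reached through its RefSeq synonym. All arrays were on 1 slide with 1 scan time. Row 1 of the slide held control arrays 2 and 4 and PMSG arrays 2 and 3. The number of arrays limits the precision. Alternatives were other scalings (quantile, median), normexp (offset 50), the deposited values, other filters, the mean of a gene's probes, blocks, single slide rows, array weights and leaving out each array.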

Additional observations from a re-analysis of the deposited data

Results flagged for a closer look

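In 106 groups of 4 arrays examined, 5 held 1 array far from the other 3, with a gap past Dixon's critical value, and chance alone gives about 1 in 20, or 5.3. Bmp6 stood at -4.33 on PMSG array 2, against -4.98 to -4.88 on the other PMSG-labelled arrays. Gdf6 was likewise highest on PMSG array 2, at -1.58 against -2.18 to -2.08. Fst was lowest on the same array, at 3.64 against 3.85 to 3.89. For Bmp8a, control array 1 lay at -4.59, below the -4.06 to -3.96 of the other control-labelled arrays. Figla reached -0.93 on PMSG array 3, against -1.10 to -1.07 on the others.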

How the results depend on the processing

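With each array left out in turn, 3 of the 10 genes passed every time, and the differences ranged from 1.89 to 2.23 for Gdf9, 1.00 to 1.35 for Bmp15 and 1.47 to 1.85 for Bmp2; the probes passing over the whole array ranged from 6552 to 11382 (without PMSG array 4), against 8658. On slide row 1 alone, with 2 arrays per group, 3351 probes passed, and Gdf9, Bmp15 and Bmp2 still did (1.84, 1.15 and 1.25). On slide row 2 alone, limma called 0 probes (6015 at an unadjusted p under 0.05) and 0 of the 10 genes (3 at an unadjusted p under 0.05). The differences there were 2.25 for Gdf9 (adjusted p = 0.0770), 1.13 for Bmp15 (0.218) and 2.15 for Bmp2 (0.0819). The cause was not tested.

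Signs reversed only among genes that did not pass: Bmp6 (-0.060) and Bmpr2 (-0.0012) under quantile normalization, Bmp7 (-0.0065) and Bmpr2 (-0.095) with median centring, Bmpr2 on slide row 1 alone (-0.048) and with control array 3 left out (-0.032; the other 7 omissions reached 0.156), and Bmp4 (0.090) and Bmpr1a (0.0053) on slide row 2 alone. Quantile normalization brought Gdf9 minus the oocyte marker mean past the threshold (0.17). Normexp, chosen for the per-array differences after seeing the data, gave 1.39, 0.28, -1.10, -1.48 and -0.74 for the 5 differences in the order Gdf9 minus Bmp15, Gdf9, Bmp15 and Bmp6 minus the marker mean, and Bmpr1a minus Bmpr1b. Of the probes that passed, 51.4% were higher in arrays labelled PMSG, against 34.5% with median centring. Pathway genes passing ranged from 25 to 35 and oocyte markers from 13 to 14 under quantile normalization, the deposited values and each array left out.

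Deviations of same-numbered arrays from their group means had correlations of 0.04, 0.04, 0.18 and -0.02, so no strong shared deviation was seen. Differently numbered arrays were not compared, so these values cannot decide whether the replicate numbers mark a pairing. With the replicate number as a block, 7346 probes and the same count of 3 genes passed, and the differences kept their values (Gdf9 adjusted p = 0.00549, Bmp15 0.0162, Bmp2 0.0184), while Bmp8a, Tgfbr1, Smurf2, Bmp1, Msx2 and Sohlh2 lost their calls and Hfe2 (0.0400) and Sost (0.0435) gained one. The theca, stromal and leukocyte markers higher and the granulosa markers lower each numbered 1 fewer. The mean of a gene's probes gives no count of probes to compare. Signal over background limits Bmp15, Bmp6 and the second Grem1 probe.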
